A study of Mus musculus with 11 samples.

Results

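Secretoglobins are small secreted proteins of glands and mucosal surfaces. In mice, many belong to the androgen-binding proteins of saliva and tears, which are dimers of an alpha subunit (the Scgb1b genes) and a beta-gamma subunit (the Scgb2b genes). The mammary gland, the salivary glands and the lacrimal gland are all exocrine glands, and their secretory epithelial cells release such proteins into a lumen. The 6 genes described here were Scgb1b27 (an alpha subunit), Scgb2b27 (a beta-gamma subunit), Pip (prolactin-induced protein, secreted in saliva, tears and mammary fluid), Prol1 (a proline-rich protein of the lacrimal and salivary glands, also listed as Muc10), Slc38a3 (a sodium-coupled glutamine transporter) and Elapor1 (a membrane protein of the endosomal and lysosomal system). They were chosen by their measured expression on these arrays, which had been seen to be high in fibroblasts from carcinoma and advanced carcinoma. Each was represented by its probe set with this symbol as its only one, and by the brighter one where there were 2 (Scgb1b27). All 6 were measured, of 19938 genes.

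The expression arrays were hybridised with RNA from freshly sorted mammary fibroblasts of female mice. Advanced carcinoma (12 weeks, arrays D8, D9 and D11, labelled late carcinoma), carcinoma (9 weeks, D3, D4 and D10) and hyperplasia (4 weeks, D6, D7 and D12) were taken from MMTV-PyMT mice, in which the MMTV promoter drives polyoma middle T in the mammary epithelium, and normal glands (8 weeks, D2 and D5) from FVB/n mice without the transgene. Each array holds the cells of 1 cohort of pooled mice, and each stage has its own age, so stage and age cannot be told apart. Cells were sorted as CD140a-positive (the product of Pdgfra) and F4/80-negative (the product of Adgre1), and the labels add EpCAM-negative. The authors' methods name EpCAM staining only for separate sorts made to check the array results. Whether it was applied to the cells of these arrays is therefore uncertain. Fibroblasts from carcinoma and advanced carcinoma are together called cancer-associated fibroblasts (CAFs, 6 arrays) and were set against hyperplasia and normal glands (5 arrays). Values are log2 expression by the robust multi-array average (RMA), with array medians from 5.28 to 5.39 and a median gene at 5.64. They carry no call of presence or absence, so a low value is not a zero.

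The array of advanced carcinoma D11 and that of normal D2 were not independent. In each probe set the 2 values added up to 2 times the average over the remaining 9 arrays, with a gap of at most 0.000144. A gene above that average in D11 was therefore as far below it in D2 by construction. Differences that rest on these arrays are given below with and without them. The label of the cells was checked against marker genes. Pdgfra averaged 10.50 ± 0.66 in CAFs and 11.16 ± 0.22 in hyperplasia and normal glands (errors are SDs here and below, over 6 CAF arrays and 5 others), and 13 fibroblast genes had array means of 9.54 to 11.11 in CAFs and of 11.00 to 11.38 in the others, the lowest being carcinoma D4. Epcam, whose product only the labels name as sorted against, averaged 9.33 ± 0.46 in CAFs and 7.17 ± 0.78 in the others, a difference of 2.16 (limma, adjusted p = 0.00149). Adgre1 was higher by 2.32 (limma, adjusted p = 0.00719).

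All 6 genes were higher in each CAF array than in each of the other 5 arrays. This held for 7.77% of all genes. CAFs against the rest is the contrast on which the genes were chosen, so these differences are described and not tested. They ranged from 2.91 for Scgb2b27 to 4.30 for Scgb1b27 on the log2 scale, with a median of 3.53, whereas the median over all genes was -0.04. Of all genes, limma called 12% higher and 12.8% lower in CAFs, and with each array centred on its median the calls were 2097 higher and 4046 lower. In pooled RNA, more cells that express a gene and more RNA per cell cannot be told apart.

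Among the secretoglobins, Scgb1b27 was at 8.73, 10.66 and 10.14 in advanced carcinoma D8, D9 and D11 and at 7.32, 11.10 and 8.11 in carcinoma D3, D4 and D10. It was at 4.69, 5.39 and 5.89 in hyperplasia D6, D7 and D12 and at 4.64 and 4.60 in normal D2 and D5. Its mean was 9.34 ± 1.51 over the 6 CAF arrays and 5.04 ± 0.57 over the other 5, which is 19.7-fold and the largest difference among the 6 genes. Without D2 and D11 the difference was 4.04. The dimmer probe set of this gene differed by 2.64 in the same direction.

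Scgb2b27 was at 7.16, 7.82 and 8.24 in advanced carcinoma D8, D9 and D11 and at 6.73, 8.62 and 6.91 in carcinoma D3, D4 and D10. In hyperplasia D6, D7 and D12 it was at 4.73, 5.32 and 5.80, and in normal D2 and D5 at 4.27 and 3.23. CAFs thus averaged 7.58 ± 0.77 and the others 4.67 ± 0.99, a difference of 2.91 (2.68 without D2 and D11). Both secretoglobin genes lie on chromosome 7, Scgb2b27 at chr7:34011919-34013942 and Scgb1b27 at chr7:34021481-34022881 (RefSeq, GRCm38.p6), with starts 7539 bases apart on opposite strands. The cluster around them holds near-identical copies, and probes of one gene may bind transcripts of another, so how far each value belongs to the named copy is uncertain. A probe set annotated to both Scgb2b27 and Scgb2b26 averaged 8.70 ± 1.31 in CAFs and 5.67 ± 0.89 in the others.

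Pip had the widest range of the 6 genes within the CAF arrays. It was at 7.28, 10.64 and 9.44 in advanced carcinoma D8, D9 and D11 and at 4.85, 10.37 and 5.74 in carcinoma D3, D4 and D10. The other arrays lay at 4.41, 4.39 and 4.54 in hyperplasia D6, D7 and D12 and at 3.15 and 4.42 in normal D2 and D5. Carcinoma D3 was therefore only 0.31 above the highest array outside the CAFs, hyperplasia D12. The mean was 8.05 ± 2.46 in CAFs and 4.18 ± 0.58 in the others, a difference of 3.87, or 3.34 without D2 and D11.

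Prol1 followed the same order of CAF arrays as Pip. Its values were 7.17, 11.33 and 9.88 in advanced carcinoma D8, D9 and D11 and 5.88, 9.91 and 6.17 in carcinoma D3, D4 and D10. They were 4.79, 5.25 and 5.63 in hyperplasia D6, D7 and D12 and 3.64 and 4.71 in normal D2 and D5. Here too carcinoma D3 was close to hyperplasia D12, 0.26 above it. CAFs averaged 8.39 ± 2.27 and the others 4.80 ± 0.75, a difference of 3.59 (3.0 without D2 and D11).

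Slc38a3 and Elapor1, the transporter and the membrane protein, were high in every CAF array, with less spread among these arrays than Pip, Prol1 or Scgb1b27. Slc38a3 was at 7.28, 7.35 and 7.73 in advanced carcinoma D8, D9 and D11 and at 7.22, 7.93 and 6.5 in carcinoma D3, D4 and D10, against 3.49, 4.02 and 4.85 in hyperplasia D6, D7 and D12 and 3.79 and 3.20 in normal D2 and D5. Elapor1 was at 8.41, 8.20 and 8.04 in advanced carcinoma D8, D9 and D11 and at 7.70, 8.41 and 7.47 in carcinoma D3, D4 and D10, against 4.12, 5.03 and 5.59 in hyperplasia D6, D7 and D12 and 5.08 and 4.11 in normal D2 and D5. The lowest CAF array was carcinoma D10 for both, 1.65 above the highest other array for Slc38a3 and 1.88 for Elapor1. The differences of the means were 3.46 for Slc38a3 (7.33 ± 0.49 in CAFs and 3.87 ± 0.63 in the others) and 3.25 for Elapor1 (8.04 ± 0.39 in CAFs and 4.78 ± 0.65 in the others). Without D2 and D11 they were 3.37 and 3.33. For all 6 genes hyperplasia D12 was the highest array outside the CAFs.

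**Figure D1:**
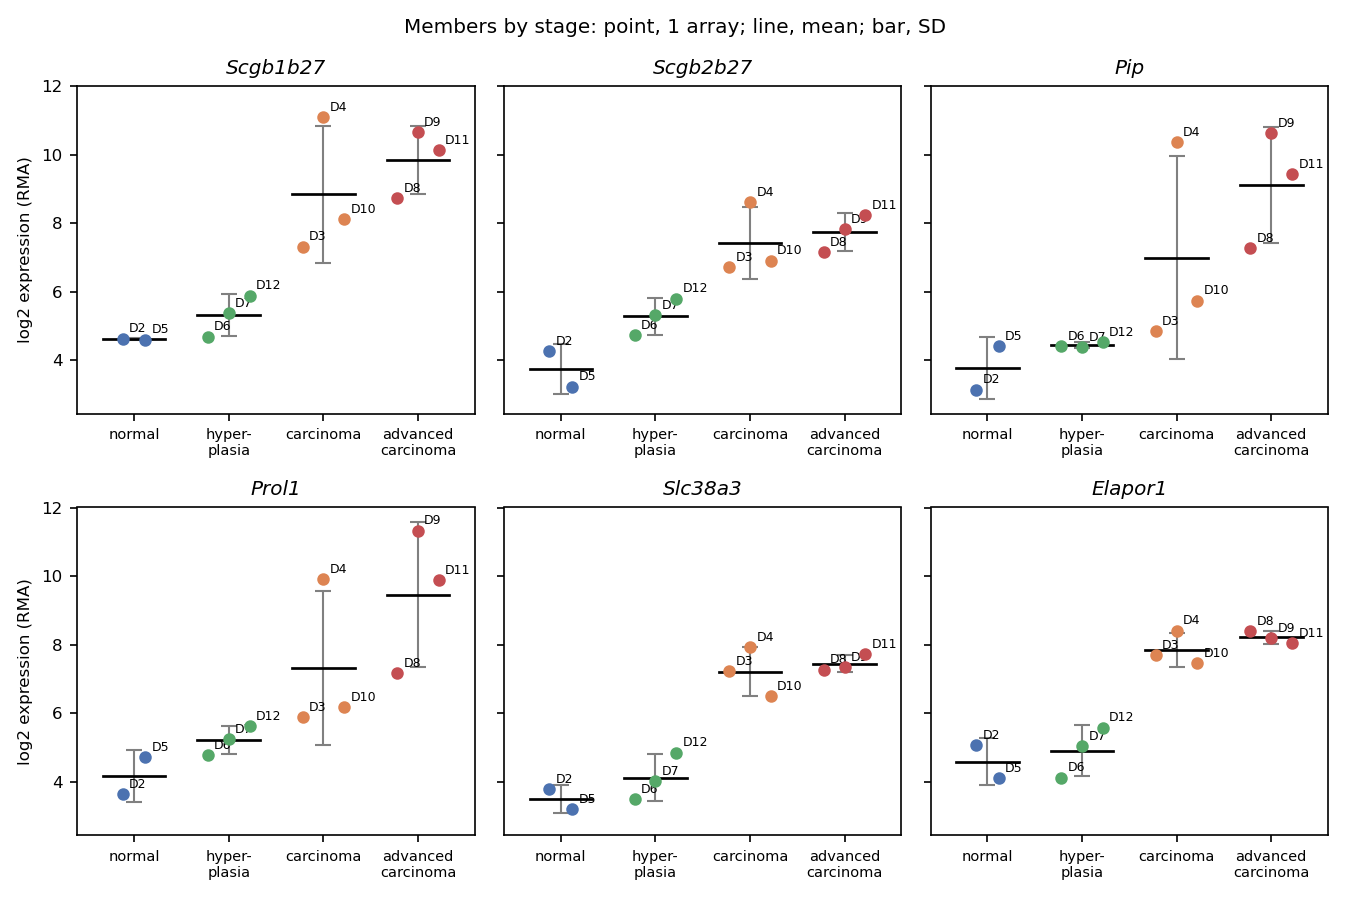
Log2 expression (RMA) of the 6 genes by stage, with 1 point per array, the mean as a line and the SD as a bar (n = 2 for normal glands, 3 for each other stage). Scgb1b27, Pip and Prol1 spread widely among the carcinoma and advanced carcinoma arrays, with D3 and D10 low and D4 and D9 high, whereas Slc38a3 and Elapor1 stayed within 6.5 to 7.93 and 7.47 to 8.41 there.

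The comparison of the CAF stages with each other was not used to choose the genes. It was not independent of that choice, because advanced carcinoma D11 is tied to normal D2, an array of the choosing contrast. Means of all 6 were higher in advanced carcinoma than in carcinoma, none passed the test, and the arrays of the 2 stages overlapped for each (6.48% of all genes had every advanced carcinoma array above every carcinoma array). Pip was at 9.12 ± 1.70 in advanced carcinoma and 6.99 ± 2.96 in carcinoma (SD, n = 3 each), a difference of 2.13 with a 95% interval of -0.88 to 5.14 (limma, adjusted p = 0.893). Prol1 differed by 2.14 (interval -0.59 to 4.87) and Scgb1b27 by 1.0 (interval -1.0 to 3.0). Scgb2b27 differed by 0.32 (interval -0.89 to 1.53), Slc38a3 by 0.24 (interval -0.69 to 1.16) and Elapor1 by 0.36 (interval -0.54 to 1.25). The adjusted p of these 5 in limma lay between 0.893 and 0.952. No gene of the whole table passed (0%), while 5.64% had an unadjusted p under 0.05. For Slc38a3 and Elapor1 the intervals exclude a difference above 1.25, and for Pip and Prol1 they reach several log2 units in the positive direction. For Pip, Prol1 and Scgb1b27, the sizes depended on single arrays. Without carcinoma D4 they were 3.82 for Pip, 3.43 for Prol1 and 2.13 for Scgb1b27 (limma, adjusted p = 0.129, 0.183 and 0.159), without carcinoma D3 they were 1.06, 1.42 and 0.24, and without advanced carcinoma D9 1.37, 1.2 and 0.59 in the same order of genes. With array weights in limma, which give arrays far from their group less weight, Pip differed by 3.81 (adjusted p = 0.0467). It was 1 of 1301 genes that passed in that setting. The difference of Pip was 2.22 with a term for D2 and D11 and 1.97 without both. With the term, that of Scgb2b27 was 0.03 and that of Slc38a3 was 0.07.

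Hyperplasia against normal glands was not the contrast of the choice either. It was not independent of that contrast, because normal D2 is tied to advanced carcinoma D11, a CAF array. All 6 means were again higher in hyperplasia, and none passed the test. Scgb2b27 differed by 1.53 (95% interval 0.18 to 2.89, unadjusted p = 0.0305, adjusted p = 0.999 in limma), with means of 5.28 ± 0.53 in hyperplasia (3 arrays) and 3.75 ± 0.74 in normal glands (2 arrays). Without normal D2 and advanced carcinoma D11 it was 2.05, and without normal D5 it was 1.01, below Prol1 (1.58) and Pip (1.3) in that setting. Prol1 differed by 1.04, Scgb1b27 by 0.70, Pip by 0.67, Slc38a3 by 0.62 and Elapor1 by 0.32, all with an adjusted p of 0.999. For 3 of the 6 genes, each hyperplasia array was above both normal arrays, which held for 10.7% of all genes. These were Scgb1b27, Scgb2b27 and Prol1. For Prol1 and Pip the size rested on normal D2: without it the differences were 0.51 and 0.03. Slc38a3 and Elapor1 moved the other way, to 0.92 and 0.80 without D2 and D11. No gene of the table passed (0%), and 4.22% had an unadjusted p under 0.05. The mean of Epcam ran the other way, with -0.86 (interval -1.97 to 0.25) in hyperplasia against normal glands.

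**Figure D2:**
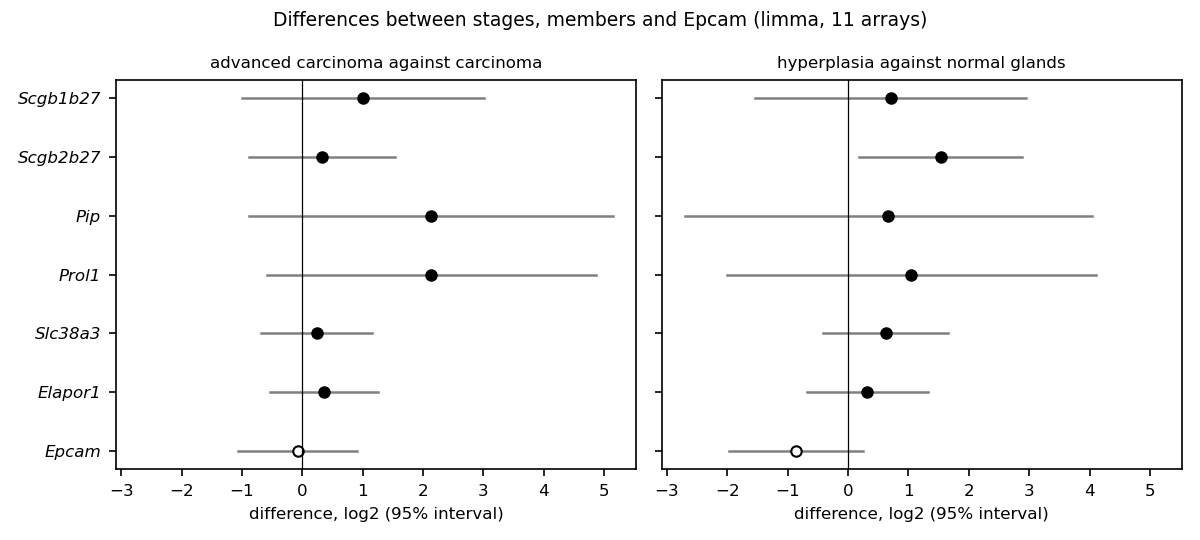
Differences in log2 expression of the 6 genes (filled) and Epcam (open) between advanced carcinoma and carcinoma (left) and between hyperplasia and normal glands (right), with 95% intervals from limma on 11 arrays. The intervals include 0 except for Scgb2b27 in hyperplasia against normal glands (0.18 to 2.89), and those of Pip and Prol1 are the widest.

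Within the CAF arrays the genes differed in their spread. From the lowest to the highest CAF array, Pip spanned 55-fold, Prol1 43.5-fold, Scgb1b27 13.8-fold and Scgb2b27 3.71-fold, whereas Slc38a3 spanned 2.69-fold and Elapor1 1.93-fold. By the SD over CAF arrays, Pip ranked 5th, Prol1 6th and Scgb1b27 10th of 19938 genes, Scgb2b27 ranked 310th, Slc38a3 1299th and Elapor1 2116th. The median gene had an SD of 0.126. Pip and Prol1 varied together over the 6 CAF arrays (Pearson's r = 0.977, Spearman's rho = 1.0, exact permutation p = 0.00278 for each, two-sided, the smallest that 6 arrays allow). Adjusted over the 15 pairs of the 6 genes, both p were 0.0417. Scgb1b27 and Pip had an r of 0.989 (exact permutation p = 0.00556, adjusted 0.0417) and a rho of 0.943 (p = 0.0167, adjusted 0.05). The other 13 pairs had an r from 0.622 to 0.947 and an adjusted exact permutation p for r from 0.0625 to 0.203. The r of Pip and Prol1 was 0.957 without the arrays farthest from the median of Pip (carcinoma D3 and D10) and 0.976 without D11. For Scgb1b27 and Pip it was 0.996 without carcinoma D3 and D4 and 0.989 without D11. Because D11 is fixed by D2 and the other arrays, the 6 points are not fully independent. The arrays also span 2 stages, and the genes were chosen on these same arrays. Such values were not confined to the 6 genes. Over the CAF arrays the r of Scgb1b27 with the glycolytic gene Aldoa was 0.991, above that of Scgb1b27 with Pip. The r with Pip was 0.958 for Stk19, 0.944 for Asns and 0.938 for Scgb2b2. The share of all gene pairs with such an r was not computed, so these p are descriptive.

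**Figure D3:**
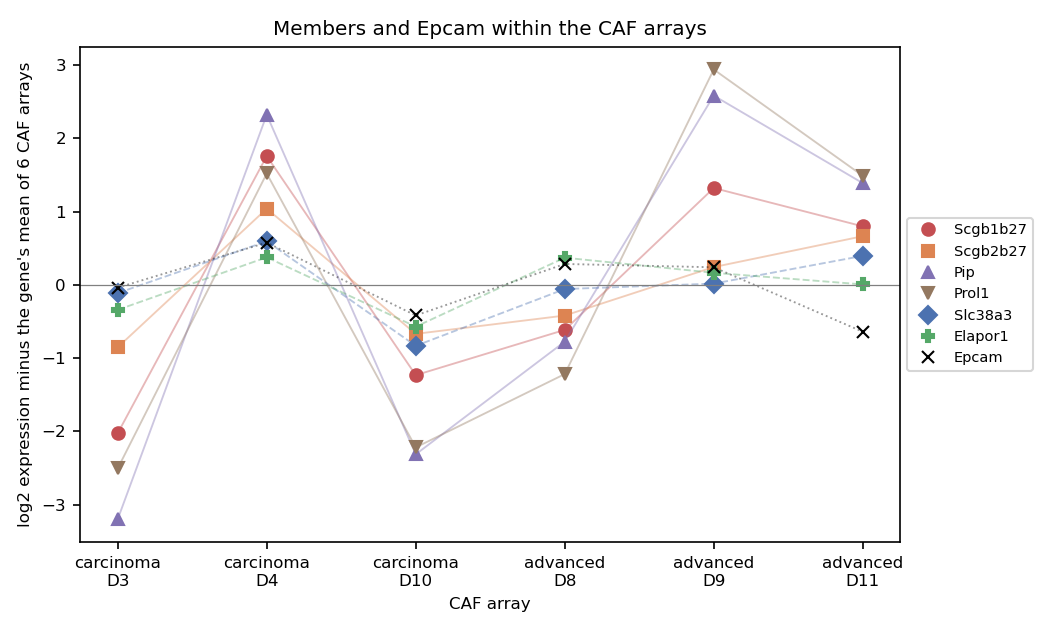
Log2 expression in each CAF array minus the gene's own mean over the 6 CAF arrays, for the 6 genes and Epcam. Pale lines only join the points of a gene; Pip, Prol1 and Scgb1b27 were lowest in carcinoma D3 and above their mean in carcinoma D4 and advanced carcinoma D9 and D11, whereas Epcam was lowest in D11.

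The upstream sequences of the 4 genes of secreted proteins are shown for description. Pip had the highest r of the pairs with Scgb1b27 and with Prol1, and Scgb2b27 is the neighbour of Scgb1b27 (its pairs did not pass for r). They are the 250 bases before the start of each gene (RefSeq, GRCm38.p6), 5′ to 3′ on the gene's strand, with capitals for matches to the motifs given after them. Scgb1b27 is chr7:34021231-34021480 on the plus strand, Scgb2b27 chr7:34013943-34014192 on the minus strand, Pip chr6:41847299-41847548 on the plus strand and Prol1 chr5:88317062-88317311 on the plus strand.
Scgb1b27: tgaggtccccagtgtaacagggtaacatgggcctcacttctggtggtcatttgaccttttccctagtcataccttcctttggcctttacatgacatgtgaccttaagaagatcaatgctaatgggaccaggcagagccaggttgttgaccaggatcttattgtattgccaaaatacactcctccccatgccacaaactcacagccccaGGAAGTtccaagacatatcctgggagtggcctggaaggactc
Scgb2b27: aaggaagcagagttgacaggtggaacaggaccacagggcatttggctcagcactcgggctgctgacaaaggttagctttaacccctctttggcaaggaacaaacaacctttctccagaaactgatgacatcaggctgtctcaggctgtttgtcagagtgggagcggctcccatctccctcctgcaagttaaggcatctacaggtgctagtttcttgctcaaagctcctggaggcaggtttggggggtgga
Pip: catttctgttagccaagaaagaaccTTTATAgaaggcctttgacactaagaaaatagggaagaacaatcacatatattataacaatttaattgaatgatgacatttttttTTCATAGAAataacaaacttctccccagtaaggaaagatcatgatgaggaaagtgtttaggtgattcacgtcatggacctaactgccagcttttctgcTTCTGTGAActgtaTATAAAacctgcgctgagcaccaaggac
Prol1: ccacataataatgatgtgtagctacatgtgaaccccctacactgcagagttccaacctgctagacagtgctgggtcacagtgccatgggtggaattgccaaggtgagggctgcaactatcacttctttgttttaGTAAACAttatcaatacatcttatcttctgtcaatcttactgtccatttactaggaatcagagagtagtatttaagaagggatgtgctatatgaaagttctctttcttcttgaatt
Windows were found for 5 of the 6 genes, and 32851 windows of the same length over all genes gave the background. On both strands they were searched for the TATA box TATAAA, the STAT motif TTCNNNGAA, the oestrogen receptor motif GGTCANNNTGACC, the androgen and glucocorticoid receptor motif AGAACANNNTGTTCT, the forkhead motif TGTTTAC, the E-boxes CAGCTG and CATATG and the ETS motif GGAAGT. The Pip window held the TATA box at bases -28 to -23 before the start and, on the other strand, at -225 to -220, a motif held by 12.4% of all windows. It also held the STAT motif at -42 to -34 and at -140 to -132, which 7.02% of all windows hold. The STAT motif is the site of STAT5, through which prolactin acts in mammary epithelium. The Scgb1b27 window held the ETS motif at -42 to -37 (19.7% of all windows) and the Prol1 window the forkhead motif on the other strand at -116 to -110 (3.17%). The 4 windows share none of these motifs, no matches overlap, and the windows of Scgb2b27 and Elapor1 held none of them. The Elapor1 window, not shown, precedes a start inside the gene's span and so lies partly within the gene. Of all windows, 13.0% held CAGCTG, 3.46% CATATG, 0.0639% the oestrogen receptor motif and 0.00913% the androgen and glucocorticoid receptor motif. A match of letters is not a measured binding site.

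Epcam, the marker of epithelial cells, was compared with each gene array by array. Over the 6 CAF arrays, Elapor1 had the highest correlation with Epcam (Pearson's r = 0.686, exact permutation p = 0.153; Spearman's rho = 0.83, p = 0.0583), and the r of the other 5 genes lay between 0.242 and 0.379. None passed after adjustment over the 6 genes (exact permutation, adjusted p = 0.631 for each r and from 0.35 to 0.564 for rho). The array that departed from the others was advanced carcinoma D11, where Epcam was at 8.69, its lowest CAF value, and Scgb1b27 was at 10.14. Without D11 and carcinoma D10, the arrays farthest from the median of Epcam, r ranged from 0.603 for Prol1 to 0.911 for Scgb2b27 over 4 arrays. The number of arrays is too small to read an order from these values. Without carcinoma D4, the r of Scgb2b27 was -0.28. The CAF arrays and the others lay apart in both measures, so no correlation over all arrays was tested. In the arrays outside the CAFs, Epcam was at 6.02, 6.81 and 7.66 in hyperplasia D6, D7 and D12 and at 8.01 and 7.37 in normal D2 and D5. Between advanced carcinoma D11 and normal D2, the tied arrays, Epcam differed by 0.68, and Slc38a3 was at 7.73 in D11 and 3.79 in D2. For each gene this gap is fixed by how far D11 lies from the average of the remaining arrays. The gaps are therefore no separate comparison of the genes with Epcam.

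**Figure D4:**
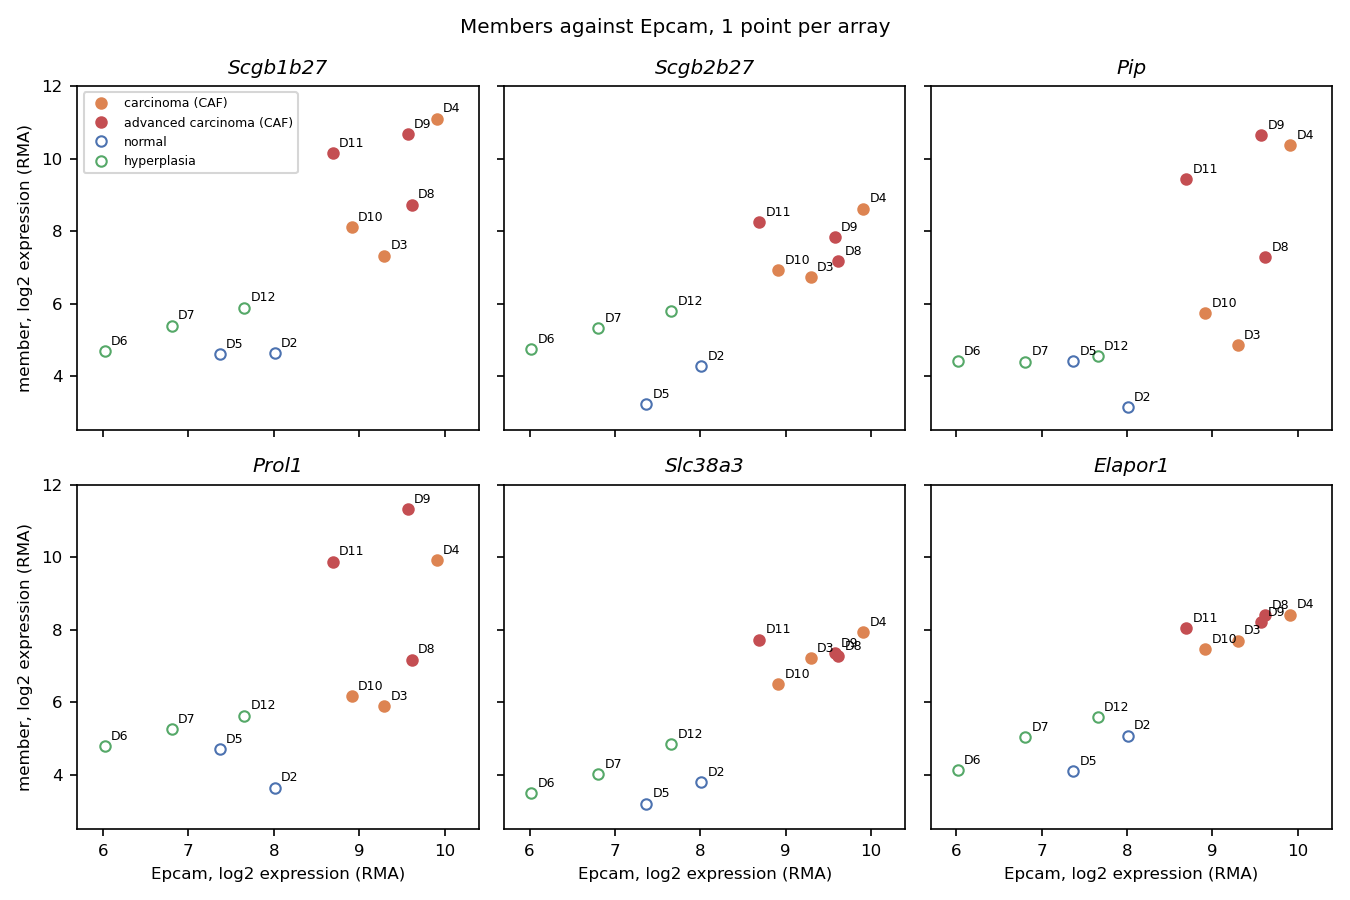
Log2 expression (RMA) of each of the 6 genes against that of Epcam, 1 point per array, with CAF arrays filled and the others open. The CAF arrays lie to the upper right, with Epcam from 8.69 to 9.91, and among them Pip and Prol1 spread over more than 5 log2 units at nearly the same Epcam values (D3, D8 and D9).

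Other exocrine gland genes were also high in CAF arrays. Some were high in all 6, some mainly in the arrays where Pip was high, and some in other or single arrays. Of 17 measured genes of salivary and lacrimal glands, 5 rose in CAFs and none fell (limma), with a median difference of 0.60. These were the secreted carbonic anhydrase Car6 (by 3.57, adjusted p = 0.0047), the secretory cell transcription factor Bhlha15 (by 2.51, adjusted p = 0.00104), the water channel Aqp5 (by 2.26, adjusted p = 0.000226), Egf (by 0.50) and the mucin Muc19 (by 0.17). Without D2 and D11, 4 of the 17 rose, and with array weights 9 did. Several others were high in a part of the CAF arrays only. Bpifa2, the parotid secretory protein, was at 4.58, 9.85 and 10.36 in advanced carcinoma D8, D9 and D11 and at 4.56, 12.68 and 4.73 in carcinoma D3, D4 and D10, and at 1.99 to 5.68 in the other 5 arrays. Its mean difference of 3.55 did not pass (limma, adjusted p = 0.115). Smr3a, a submandibular gland protein, was at 5.02, 6.19 and 8.16 in advanced carcinoma D8, D9 and D11 and at 4.97, 10.25 and 4.85 in carcinoma D3, D4 and D10, and at 3.29 to 5.18 in the others. The cystatin Cst10 had nearly the same pattern, with 5.30, 6.05 and 8.35 in advanced carcinoma D8, D9 and D11 and 5.28, 10.30 and 5.19 in carcinoma D3, D4 and D10, and 3.54 to 5.40 in the others. For these 3 genes carcinoma D4 was the highest array, D11 and D9 came next, and D3, D10 and D8 were within the range of the arrays outside the CAFs. Not all genes of the list had this order. Smr2 was highest in advanced carcinoma D8 (7.45), against 4.91 in carcinoma D4 and 4.47 in advanced carcinoma D9. Its r with Pip over the CAF arrays was 0.017. Smgc stood out in advanced carcinoma D9 only (5.99), against 3.86 in carcinoma D4 and 4.11 in advanced carcinoma D11. Over all genes, the 10 with the largest SD in CAF arrays were Bpifa2, Mucl2, Chia1, Gm5886, Pip, Prol1, Smr3a, Cst10, Amy1 and Scgb1b27. Mucl2, a mucin-like salivary protein, was at 4.66, 12.29 and 10.41 in advanced carcinoma D8, D9 and D11 and at 4.61, 11.02 and 6.68 in carcinoma D3, D4 and D10. Chia1, an acidic chitinase, was at 4.24, 7.09 and 9.14 in the same advanced carcinoma arrays and at 4.41, 11.06 and 4.34 in the carcinoma arrays. Amy1, the salivary amylase, reached 10.13 in carcinoma D4 and had a mean difference of -0.22. The summed level of the 17 genes ranged from 10.12 to 13.57 in CAFs and from 8.85 to 9.85 in the others on the log2 scale, and its part in the values of Pip, Prol1 and Scgb1b27 was not tested.

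Most milk and luminal genes rose in CAFs. The milk genes Pigr, Wap and Csn3 and the luminal gene Cldn3 had SDs of 0.30 to 0.81 over the CAF arrays. The largest SD in the milk list was 1.17, for Glycam1. Of 12 measured milk protein genes, 10 rose and none fell (9 rose without D2 and D11), with a median difference of 2.40. Pigr, which carries immunoglobulin A into milk, rose by 3.15 (limma, adjusted p = 0.000292), the whey acidic protein gene Wap by 2.80 (adjusted p = 0.000458) and the casein gene Csn3 by 2.06 (adjusted p = 0.00038). Pigr was at 7.30, 7.12 and 7.32 in advanced carcinoma D8, D9 and D11 and at 6.32, 8.66 and 6.61 in carcinoma D3, D4 and D10, against 3.82, 4.01 and 4.62 in hyperplasia D6, D7 and D12 and 4.26 and 3.63 in normal D2 and D5. Of 18 luminal epithelial genes 17 rose and none fell, with a median difference of 2.13, and of 7 basal epithelial genes 3 rose and none fell. The summed level of the luminal genes was 12.42 to 13.58 in CAFs and 10.18 to 11.89 in the others. Among macrophage genes 10 of 12 rose and none fell, and among T, NK and B cell genes 6 of 9 fell and none rose (2 fell with a term for D2 and D11, and 0 without both arrays). The part of these cell types in the values of the 6 genes was not tested.

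**Figure D5:**
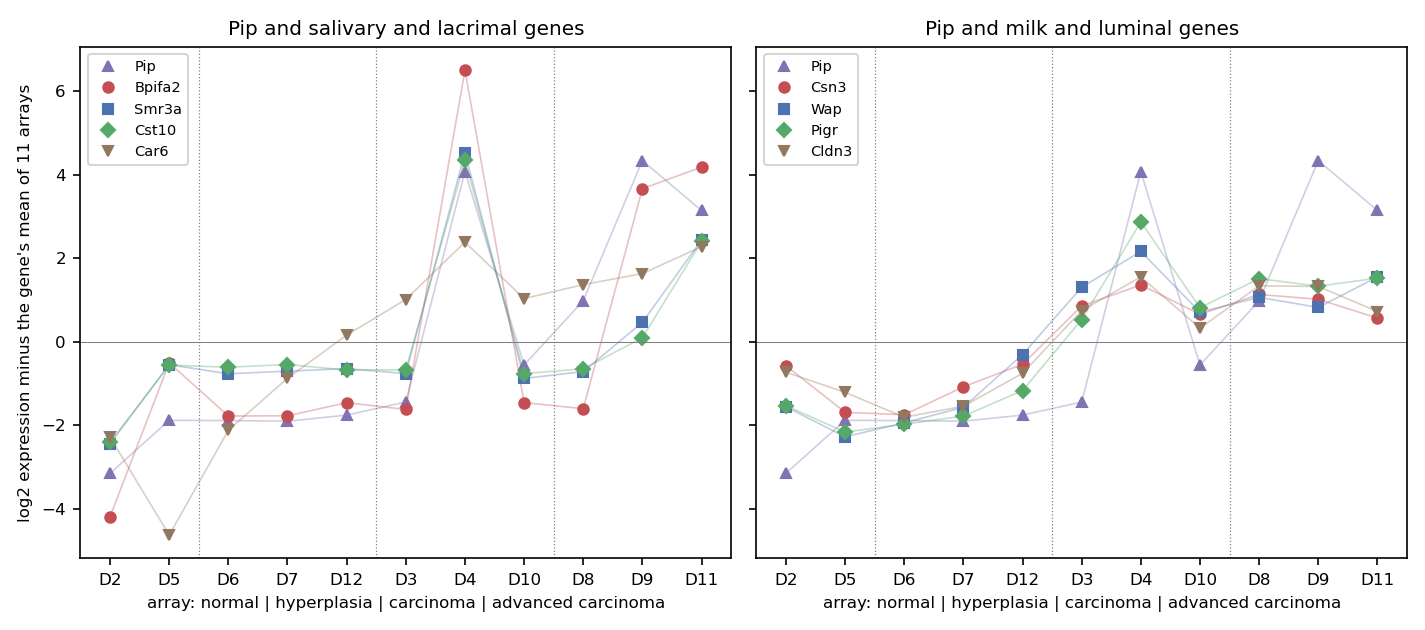
Log2 expression minus each gene's mean over the 11 arrays, for Pip beside 4 salivary and lacrimal genes (left) and beside the milk genes Csn3, Wap and Pigr and the luminal gene Cldn3 (right); dotted lines divide the stages and pale lines only join points of a gene. Bpifa2 and Pip stand out in carcinoma D4 and advanced carcinoma D9 and D11, Smr3a and Cst10 most in D4 and D11, and the milk and luminal genes are above their mean in all 6 CAF arrays.

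Other secretoglobins shared the direction in part. Of 9 further measured genes of the family, 4 rose in CAFs and none fell in limma (3 rose with a term for D2 and D11, without both, or without carcinoma D4, and with array weights 4 rose and 1 fell). Scgb2b2 rose by 1.41, to 6.62 ± 0.52 in CAFs against 5.21 ± 0.34 in the others (adjusted p = 0.00264), and Scgb1c1 by 1.25, to 5.28 ± 0.55 against 4.03 ± 0.10 (adjusted p = 0.00327). Scgb2b24 rose by 0.90 and Scgb3a1 by 0.17. The lung secretoglobins Scgb1a1 and Scgb3a2 differed by -0.10 and -0.09 and Scgb2a2, the mammaglobin gene, by -0.05, all without passing. A probe set annotated to Scgb1b7, Scgb1b20 and Scgb1b29 differed by -0.23 and one annotated to Scgb2b11, Scgb2b7 and Scgb2b20 by 1.26.

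The neighbours of Slc38a3 in function did not move as 1 group. Of 11 measured genes of glutamine transport and metabolism, 3 rose and 2 fell in CAFs (limma), with a median difference of 0.09. Slc6a14, a broad amino acid transporter, rose by 1.37 (adjusted p = 0.000463), the asparagine synthetase Asns by 1.03 (adjusted p = 0.000783) and Slc7a5, which exchanges glutamine for leucine, by 1.02 (adjusted p = 0.00499). The glutamine transporter Slc1a5 fell by 1.17 and the glutamine synthetase Glul by 0.82. The relatives Slc38a1, Slc38a2, Slc38a5 and Slc38a7 differed by 0.94, 0.09, -0.01 and -0.09, without passing. Of 13 regulators of secretory cells and of hormone response, 6 rose and 3 fell. Gata3, a transcription factor of luminal cells, rose by 1.95, Xbp1, which expands the endoplasmic reticulum, by 0.97, and the membrane-bound transcription factor gene Creb3l4 by 0.67. The steroid receptor genes Esr1 and Pgr fell by 1.57 and 1.5, and Foxa1 by 1.25. With a term for D2 and D11, 4 of these 13 rose and 3 fell, and without both arrays 4 rose and 2 fell.

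By their pattern over the 11 arrays, the genes most like Slc38a3 and Elapor1 were genes of the same step between CAFs and the rest. These correlations are a description, since the arrays share the step on which the genes were chosen and D2 and D11 are tied. Npnt, which encodes the matrix protein nephronectin, had the highest r with both Slc38a3 (0.992) and Elapor1 (0.997) among 9687 genes. The next for Elapor1 were Wfdc18, Crabp2, Zfp395 and Slc5a8, and for Slc38a3 Aass, Car12, Folr1 and Zfp395. Scgb2b27 was closest to the ferroxidase gene Cp (r = 0.978) and to Car6 (0.978), then to Aass, Car12 and Scgb2b2. Prol1 was closest to Mucl2 (r = 0.958), then to Furin, Scgb2b2, Smox and Ciao3. The nearest to Scgb1b27 were the glycolytic gene Aldoa (r = 0.979), Scgb2b2, Zfp503, the glucose transporter gene Slc2a1 and Iqgap1, and to Pip they were Stk19 (r = 0.960), Tnfaip1, Furin, Scamp1 and Stk11. Without D2 and D11, none of the 5 nearest of Pip and 1 of the 5 of Scgb1b27 (Scgb2b2) stayed among the nearest 5, and Npnt stayed for both Slc38a3 and Elapor1. In the same order Epcam ranked 348th for Elapor1, 489th for Slc38a3, 991st for Scgb1b27, 1019th for Scgb2b27, 1622nd for Prol1 and 1776th for Pip.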

How the data were processed

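RNA of sorted mammary fibroblasts was measured on 11 Affymetrix arrays. The authors normalised and summarised them with RMA in Partek 6.5 and deposited log2 values for 35399 probe sets, of which 21789 had 1 gene symbol, 1621 several and 11989 none here. The brightest probe set of each symbol was kept (19938 genes, 999 of them with more than 1). Raw array files were not analysed here. Groups followed the sample labels. The 4 stages were fitted together over all 11 arrays in limma 3.58.1 (R 4.3.3), and CAFs against the rest in a fit with 2 groups, with p-values adjusted by Benjamini-Hochberg over all genes and called at 0.05. Correlations used exact permutation over all 720 orders of 6 arrays (scipy 1.17.1). Arrays are separate cohorts, and their number limits the precision. The methods name a one-way analysis of variance, which was run as an alternative. On simulated data with 19938 genes, the fit recovered 94% of changes of 1 log2 unit between advanced carcinoma and carcinoma and 80% between hyperplasia and normal glands. The changed genes were drawn at random, with independent noise at each gene's own spread and without the tie of D2 and D11. Between advanced carcinoma and carcinoma, the standard errors of Pip, Prol1 and Scgb1b27 were 1.33, 1.21 and 0.89. The recovered shares therefore do not apply to these highly variable genes.

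The 6 genes, the gene lists, the naming rule and the alternatives were chosen with earlier results of these data known. Named were the 6 genes, Epcam and the 5 genes closest to each of the 6 by Pearson's r (predicted genes, small RNAs and genes under the median level aside). Secretoglobins that differed by over 1 log2 unit were named too. The 3 genes with the smallest p were named for the milk, salivary and lacrimal, glutamine and secretory regulator lists. Of the luminal list only Cldn3 was named by this rule, and for the other cell type lists these 3 were not named. All other genes named (Bpifa2, Smr3a, Cst10, Smr2, Smgc, Amy1, Chia1, Gm5886, Egf, Muc19, Glycam1, Slc1a5, Glul, the Slc38a relatives, Esr1, Pgr, Foxa1, the smaller secretoglobin differences, Pdgfra and Adgre1) were chosen after their values were seen. As alternatives, arrays were centred on their medians or quantile normalised, dim genes (mean under the median level) were dropped, all probe sets were tested, contrasts of the analysis of variance, array weights or limma-trend with robust variances were used, the tied arrays were given a term or left out, only the 2 stages compared were fitted, and each array was left out in turn. For Epcam, the mean of the luminal list and the mean over probe sets were also used.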

Additional observations from a re-analysis of the deposited data

Results flagged for a closer look

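Among the 5 normal and hyperplasia arrays, normal D2 stood apart for Pip. Its value of 3.15 lay below 4.39 to 4.54 in the other 4 arrays, with a gap of 0.895 of the whole range, above the 95% limit of Dixon's test for 5 values (0.71). About 1 in 20 groups of independent values is marked in this way by chance. Normal D2 is tied to advanced carcinoma D11, where Pip was at 9.44. The value of D2 is therefore not independent, and this rate does not apply to it. No other value of the 6 genes or Epcam was marked.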

How the results depend on the processing

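The differences of the 6 genes in CAFs kept their direction under all 20 alternatives, between 2.55 and 4.71. Between advanced carcinoma and carcinoma no gene of the whole table passed, except for 1301 genes with array weights (Pip among them), 2 without both tied arrays, and 0 to 2 with 1 array left out. Between hyperplasia and normal glands no gene passed, except for 0 to 1 with 1 array left out. The count for CAFs ranged from 3332 (dim genes removed) to 6143 (centred arrays), and from 3703 to 5427 with 1 array left out. In advanced carcinoma against carcinoma, leaving out 1 array reversed the difference of Scgb2b27 (-0.023 to 0.92, lowest without carcinoma D3) and of Slc38a3 (-0.12 to 0.59, lowest without carcinoma D10). In hyperplasia against normal glands, it reversed that of Elapor1 (-0.16 to 0.80, lowest without normal D5, and -0.015 without hyperplasia D12). The correlation of Scgb2b27 with Epcam ranged from -0.28 (without carcinoma D4) to 0.80 (without advanced carcinoma D11), and 0 of the 6 correlations with Epcam passed in any setting. The cause was not tested. No paired analysis was possible because the groups share no replicate number. RMA values give no detection call, which limits what can be said of the lowest levels.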
